A study of Rattus norvegicus with 4 samples.

Results

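The genes described here are 41 genes of microglia, complement and innate inflammation, measured in the hippocampus of aged rats after chronic stress. Their members were all probe sets of the array whose platform annotation gave exactly 1 gene symbol, and that symbol one of the 41. This gave 51 probe sets of 40 genes among 31042 probe sets in all, since complement gene C2 shared its probe sets with Cfb and had none of its own. Signal on this type of array summarizes the brightness of a set of short probes for 1 or more transcripts, on a linear scale. A probe set was tested where 2 or more of the 4 arrays gave a signal of 100 or higher, which 30 of the 51 did. They belonged to 26 genes, and 14 genes had no tested probe set.

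The stressed rats were male Wistar rats that underwent chronic unpredictable mild stress, a changing series of mild stressors, for 4 weeks. Nonstressed controls were male Wistar rats of the same age under standard housing. All were 15 months old at the start and 16 months old at dissection of the hippocampus. Each group gave 2 arrays and each array carried total RNA pooled from 3 rats, so that a value of a single animal was not measured and each p covers only the spread between pools, which may be technical. Whether different animals went into both pools of a group is not given in the labels.

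Microglia are the resident macrophages of the brain and depend on signalling through the receptor encoded by Csf1r. They make the C1q chains that start the classical complement cascade, which converges on C3 and tags material for uptake. Toll-like receptors detect microbial and damage signals and release NF-kB from its inhibitor, after which cytokines and chemokines are made. Neutrophils, by contrast, stay in the blood of a healthy brain, and their cytosol is rich in the calcium-binding proteins encoded by S100a8 and S100a9.

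The arrays were alike in brightness, which the authors' scaling of signals to a target value of 300 in part fixes. The median signal was 79.9 and 82.1 on the stressed arrays and 80.5 and 79.3 on the control arrays, and 46.4% to 46.8% of probe sets reached 100. Pearson's r of the log2 signals, taken across probe sets that are not independent replicates, was 0.993 within the stressed group, 0.9935 within the control group and 0.9722 to 0.974 across them. Of 12 neuronal markers of the hippocampus 11 were tested, with summed signals of 25409 and 25148 in stressed rats and 24035 and 24151 in controls. Microglial RNA was present on each array. Tmem119, a marker that separates microglia from other macrophages, had signals of 307.6 and 302.6 in stressed rats and 276.2 and 324.2 in controls. In whole tissue, fewer cells of a type and less RNA per cell cannot be told apart.

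The calcium-binding alarmin genes S100a8 and S100a9, the complement gene C3, the NF-kB inhibitor gene Nfkbia, the growth factor gene Tgfb2 and the microglial receptor gene Csf1r rose in stressed rats. Cd74, the invariant chain of antigen presentation, and the complement gene C1qb fell. These were 6 genes that rose, 2 that fell and 18 that did not pass, out of 26 genes each taken at its brightest tested probe set (limma, Benjamini-Hochberg adjusted p under 0.05 over 14791 probe sets). Over all 9264 genes tested in the same way 11.1% rose and 10.2% fell, and among the members 23.1% rose and 7.69% fell. The members had been chosen with earlier results of these data known, so the shares are a description and not an independent test. At unadjusted p under 0.05, 8 members were higher and 4 lower. The share of all genes past this threshold alone was not counted. Counts at unadjusted p alone, here and below, therefore have no background beside them and do not show an excess among the members. The median log2 fold change was 0.07 for the members and 0.02 for all genes, and the median size without sign was 0.18 for the members and 0.14 for all genes. At 2-fold or more with unadjusted p under 0.05, S100a8 was higher and no member was lower, against 0.108% of all genes higher and 0.691% lower. S100a8, 1 of the 6 that rose, had entered the test through its stressed arrays alone. Of the 216 tested probe sets below 100 on both control arrays, 44.9% rose. In 13 members both stressed signals lay above both control signals and in 9 below, against 33.5% and 29.2% of all genes. The methods' t-test, which estimates the spread for every probe set alone, called no member at adjusted p under 0.05, and 6 members were higher and 4 lower at its unadjusted p under 0.05. With 2 arrays a group, the smallest two-sided p of an exact permutation test is 0.333.

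**Figure D1:**
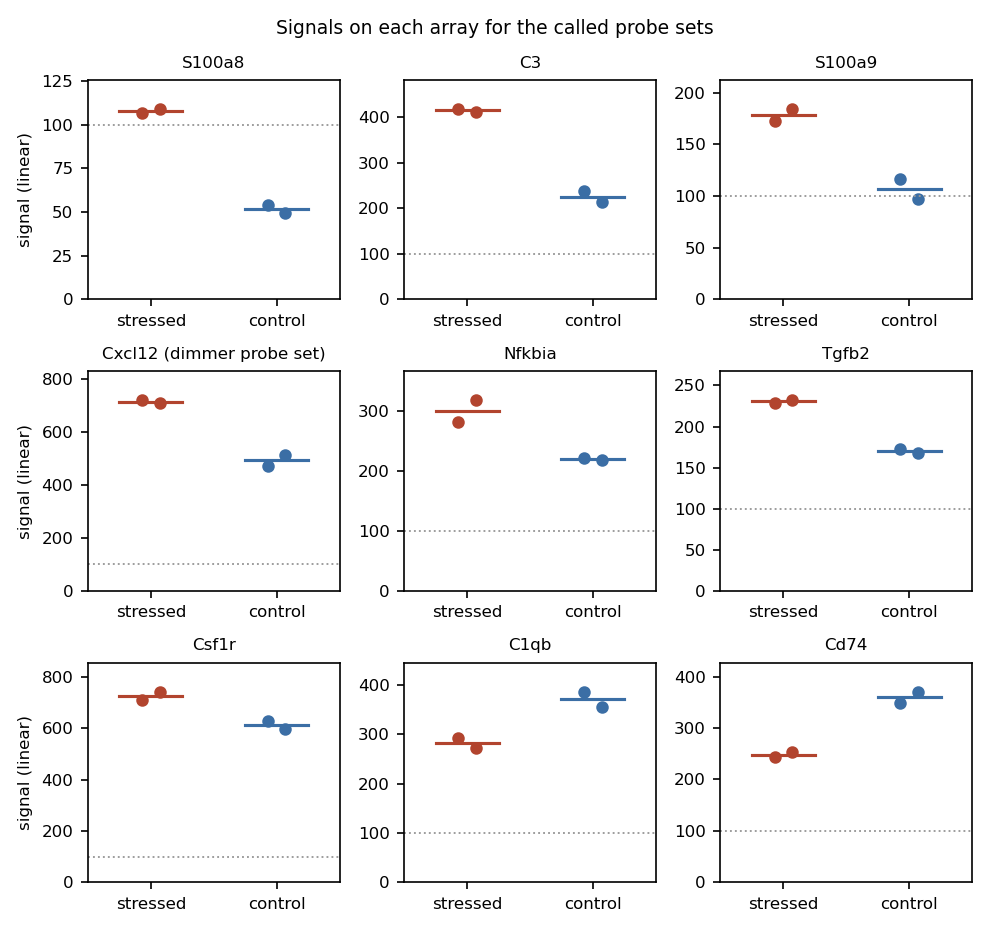
Signal (linear axis from 0) on each array for the 9 called probe sets, with stressed rats left and nonstressed controls right in each panel. Points are arrays, bars are group means and the dotted line is the minimum signal of 100. The groups did not overlap in any panel, and both control signals of S100a8 lay below 100.

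**Figure D2:**
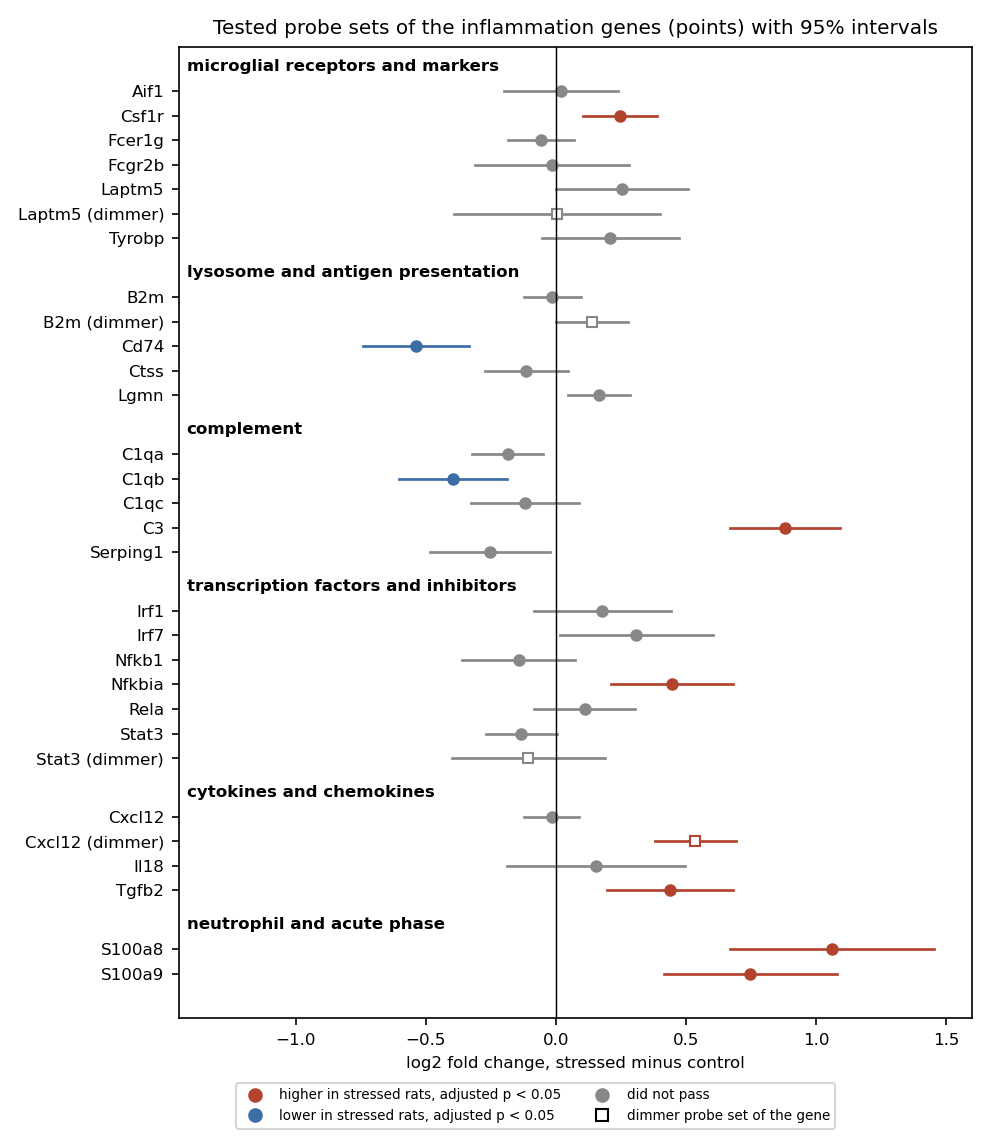
Log2 fold change (stressed minus control) of the 30 tested probe sets, grouped by role, with 95% intervals from limma. Filled circles are the probe set that stands for a gene and open squares its dimmer one. On signals as deposited S100a8 lies farthest right at 1.06, where an offset of 50 would put it at 0.63 and C3 at 0.76, and Cd74 lies farthest left at -0.54.

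Of the microglial receptors and markers that could be tested, Csf1r alone passed the test. Of 13 genes 6 were tested, of which Csf1r rose and 5 did not pass (limma, with 1 higher and 0 lower also at unadjusted p under 0.05). Csf1r, the receptor for the survival factors of microglia (probe set 1388784_at), had signals of 711.0 and 742.1 in stressed rats, against 626.3 and 598.0 in controls. Both stressed signals of Csf1r were higher, at 726.55 ± 22.0 (SD, n = 2 arrays) against 612.15 ± 20.01 in controls, a 1.19-fold difference (log2 fold change 0.25, standard error 0.06, adjusted p = 0.0244). This was the smallest difference among the called members. Its adjusted p was 0.0721 where the moderation had no trend over intensity and 0.0522 with the replicate number as a block. It was 0.1001 without stressed replicate 2, and 0.0659 and 0.1268 when control replicate 1 or 2 was left out.

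The signalling adaptors of microglia did not pass. Tyrobp, the adaptor of the Trem2 receptor, had signals of 188.4 and 199.6 in stressed rats and 162.8 and 172.9 in controls, with a log2 fold change of 0.21 (95% interval -0.05 to 0.47). The groups did not overlap, and the interval included 0. Fcer1g, which couples Fc receptors to kinases, had signals of 990.5 and 996.0 in stressed rats and 1000.6 and 1066.6 in controls (log2 fold change -0.06, interval -0.18 to 0.07). Fcgr2b, an inhibitory Fc receptor, had overlapping signals of 145.5 and 132.9 in stressed rats and 139.3 and 141.7 in controls (log2 fold change -0.01, interval -0.31 to 0.28).

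Aif1, whose product Iba1 is the usual stain for microglia, had signals of 251.8 and 242.1 in stressed rats and 243.3 and 243.8 in controls. The control signals lay between the stressed ones, and the log2 fold change was 0.02 (interval -0.20 to 0.24). The name of this probe set ends in _s_at, which marks probes that match more than 1 transcript. A dim one of Aif1 that was not tested had 9.7 and 12.7 in stressed rats and 29.6 and 18.8 in controls, lower without overlap. Laptm5, a lysosomal membrane protein of leukocytes, had signals of 362.5 and 449.6 in stressed rats and 331.9 and 345.1 in controls at its brighter probe set. This was a log2 fold change of 0.25 (adjusted p = 0.132), with 0.41 (adjusted p = 0.0269) without stressed replicate 1 and 0.099 (adjusted p = 0.562) without stressed replicate 2. Its dimmer probe set had 213.2 and 178.9 in stressed rats and 228.6 and 165.8 in controls, a difference of 0.00 with an interval from -0.39 to 0.40.

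Among genes of the lysosome and of antigen presentation, Cd74 fell and 3 of 4 tested genes did not pass. Cd74 encodes the invariant chain that guards class II molecules, which macrophages and microglia use to present antigen. Its signals (1367679_at) were 242.9 and 252.6 in stressed rats, against 348.6 and 370.7 in controls. Both stressed signals were lower than both control signals. The means were 247.75 ± 6.86 in stressed rats and 359.65 ± 15.6 in controls (SD, n = 2 arrays), or -0.54 ± 0.09 (standard error) on the log2 scale, with an adjusted p of 0.00494. When control replicate 2 was left out, the call ended at an adjusted p of 0.0501. B2m, the light chain of class I molecules, had signals of 5827.9 and 5683.6 in stressed rats and 5649.1 and 5972.5 in controls at its brighter probe set (log2 fold change -0.01, interval -0.12 to 0.10). Its dimmer probe set stood at 0.14 (adjusted p = 0.135), with 0.060 (adjusted p = 0.557) without stressed replicate 1 and 0.22 (adjusted p = 0.0476) without stressed replicate 2.

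The lysosomal protease genes did not pass. Ctss, a cathepsin that cleaves the invariant chain, had signals of 6483.3 and 6192.6 in stressed rats and 6393.1 and 7358.8 in controls. The groups overlapped, with a log2 fold change of -0.11 (interval -0.27 to 0.04). Lgmn, an asparagine-specific protease, had signals of 1422.9 and 1423.0 in stressed rats and 1310.0 and 1227.7 in controls. Its log2 fold change of 0.17 had an adjusted p of 0.0535, which passed 0.05 in 3 of 16 alternatives and ranged over them from 0.0387 to 0.246.

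Complement genes moved in opposite directions. C3 rose and C1qb fell, while 3 of 5 tested genes did not pass. C3 encodes the component on which all complement pathways converge. Its signals (1368000_at) were 418.1 and 410.8 in stressed rats, against 236.8 and 213.7 in controls. The means were 414.45 ± 5.16 in stressed rats and 225.25 ± 16.3 in controls (SD, n = 2 arrays), a 1.84-fold difference (log2 fold change 0.88, standard error 0.09, adjusted p = 0.000687). This had the smallest p of all members, and the call stood in each removal of an array.

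The 3 genes of the C1q chains, which lie side by side on chromosome 5 and whose products form 1 protein, all had lower signals in stressed rats. C1qb (1370215_at) had 292.1 and 272.9 in stressed rats, against 386.6 and 356.1 in controls, or -0.39 ± 0.09 (standard error) on the log2 scale, with an adjusted p of 0.0176. C1qa had 955.0 and 1019.8 in stressed rats and 1087.6 and 1157.9 in controls, a log2 fold change of -0.19 (adjusted p = 0.0569, past 0.05 in 1 of 16 alternatives, which ranged from 0.0430 to 0.281). C1qc had 256.4 and 252.4 in stressed rats and 276.2 and 276.3 in controls, a log2 fold change of -0.12 (interval -0.33 to 0.09, adjusted p = 0.374). The groups did not overlap at any of the 3, but C1qb alone passed the test. The adjusted p of C1qb was 0.0638 without stressed replicate 2, and 0.1067 and 0.0571 when control replicate 1 or 2 was left out. Serping1, the inhibitor of the C1 proteases, also had lower signals, 237.2 and 260.7 in stressed rats and 307.9 and 285.1 in controls (log2 fold change -0.25, interval -0.48 to -0.02, adjusted p = 0.103).

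Marker genes of other tissues in the hippocampal dissection differed in signal between the groups as well. Over all 9264 genes, 11.1% rose and 10.2% fell. Choroid plexus markers were mostly higher in stressed rats, with 10 of 14 tested genes that rose and 1 that fell, and their summed signal was 23093 and 21809 in stressed rats and 17059 and 18745 in controls. Of these rises 3, those of Cldn2, Kcne2 and Aqp1, had entered the test through the stressed arrays alone. Ace was counted among the rises too, although the paper located its protein in brain vessels and CA3 neurons. The plexus gene Sostdc1 had 1139.7 and 1070.5 in stressed rats and 617.2 and 586.5 in controls. Ttr, which carried much of that sum, had 12992.4 and 11938.5 in stressed rats and 9449.9 and 11337.7 in controls, and did not pass (limma, adjusted p = 0.0579). Meningeal markers were mostly lower, with 6 of 8 genes that fell and 1 that rose, and summed signals of 2650.4 and 2603.6 in stressed rats and 3224.9 and 3209.3 in controls. Of the falls 2, those of Col3a1 and Col1a1, had entered the test through the control arrays alone. The meningeal gene Dcn had 438.4 and 399.1 in stressed rats and 694.0 and 667.3 in controls. Endothelial and mural markers rose in 6 of 12 tested genes and fell in none (7 higher and 0 lower at unadjusted p under 0.05), with summed signals of 5777.8 and 5881.7 in stressed rats and 5049.6 and 4976.8 in controls, and 1 of these rises, that of Pdgfrb, had entered through the stressed arrays alone. Border macrophage markers had summed signals of 414.2 and 378.5 in stressed rats and 421.5 and 445.4 in controls, and 1 of 8, Pf4, was tested. No marker of these lists was at 0 on any array. Of 11 tested astrocyte markers 1 rose and 2 fell, and of 9 oligodendrocyte markers 1 rose and 2 fell. Dimmer probe sets of Slc1a3, which rose, and of Cnp, which fell, were called in the opposite direction, at -0.43 (adjusted p = 0.0125) and 0.38 (adjusted p = 0.0199). The part of these tissues in the changes of C3, Cd74, C1qb and the other members was not tested.

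Of the transcription factors and their inhibitors, all 6 were tested and only the rise of the NF-kB inhibitor passed. Nfkbia encodes the protein that holds NF-kB in the cytoplasm, and is itself a target of NF-kB. Its signals (1389538_at) were 281.9 and 317.8 in stressed rats, against 221.3 and 218.5 in controls. Both stressed signals were higher and the stressed arrays spread more, with means of 299.85 ± 25.4 in stressed rats and 219.9 ± 1.98 in controls (SD, n = 2 arrays). On the log2 scale the difference was 0.44 ± 0.10 (standard error), with an adjusted p of 0.0178. The adjusted p was 0.0889 without stressed replicate 2, and 0.0746 and 0.0895 when control replicate 1 or 2 was left out.

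The NF-kB subunits themselves did not pass. Nfkb1, the p50 precursor, had signals of 241.0 and 248.3 in stressed rats and 278.0 and 262.5 in controls (log2 fold change -0.14, interval -0.36 to 0.08). Rela, which carries the activating domain, had 324.9 and 320.9 in stressed rats and 304.7 and 293.7 in controls (log2 fold change 0.11, interval -0.08 to 0.30). Their values lay on opposite sides of 0, and neither interval excluded 0. Stat3, the factor downstream of the interleukin-6 receptor family, had 622.9 and 648.2 in stressed rats and 699.3 and 694.7 in controls at its brighter probe set (log2 fold change -0.13, adjusted p = 0.139). Its dimmer probe set stood at -0.11 (adjusted p = 0.58). The interferon regulatory factor genes had higher signals in stressed rats without passing. Irf7 had 190.5 and 181.9 in stressed rats and 161.6 and 139.7 in controls (log2 fold change 0.31, adjusted p = 0.115), and Irf1 stood at 0.18 on the log2 scale (adjusted p = 0.29).

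Among cytokines and chemokines, Tgfb2 rose and 2 of 3 tested genes did not pass, while 5 genes were too dim to test. Tgfb2 encodes a transforming growth factor. Its signals (1387172_a_at) were 229.1 and 232.1 in stressed rats, against 172.1 and 168.1 in controls. The replicates were close in both groups, at 230.6 ± 2.12 in stressed rats and 170.1 ± 2.83 in controls (SD, n = 2 arrays), a 1.36-fold difference (log2 fold change 0.44, standard error 0.10, adjusted p = 0.0211). The call was lost in each removal of an array, with adjusted p of 0.0655 and 0.0758 without stressed replicates 1 and 2, and 0.0753 and 0.0966 without control replicates 1 and 2. A dimmer probe set of Tgfb2 had 61.8 and 79.4 in stressed rats and 82.3 and 84.5 in controls, lower in stressed rats, and was not tested.

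Cxcl12, the chemokine that holds CXCR4-bearing cells in place, gave different results at its probe sets. At the brightest (1369633_at) the signals were 1450.8 and 1445.1 in stressed rats and 1470.5 and 1456.4 in controls, a log2 fold change of -0.02 (interval -0.12 to 0.09). At another (1388583_at) they were 718.9 and 708.4 in stressed rats, against 472.0 and 512.7 in controls, or 0.54 ± 0.07 (standard error) on the log2 scale, with an adjusted p of 0.0016. This rise passed in each removal of an array, yet is not counted above, since the brightest probe set stands for a gene. The difference between the probe sets was not tested, and a further one stayed below 100. Il18, a cytokine activated by the inflammasome, had 107.8 and 105.2 in stressed rats and 91.7 and 99.8 in controls (log2 fold change 0.15, interval -0.19 to 0.50).

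The neutrophil genes S100a8 and S100a9, which lie next to each other on chromosome 2 and whose products form the heterodimer calprotectin, both rose. S100a8 (1368494_at) had signals of 106.6 and 109.2 in stressed rats, against 53.8 and 49.6 in controls. The mean was 107.9 ± 1.84 in stressed rats and 51.7 ± 2.97 in controls (SD, n = 2 arrays), a 2.09-fold difference (log2 fold change 1.06, standard error 0.17, adjusted p = 0.00441). S100a9 (1387125_at) had signals of 172.8 and 184.5 in stressed rats, against 116.6 and 97.0 in controls. The mean was 178.65 ± 8.27 in stressed rats and 106.8 ± 13.9 in controls (SD, n = 2 arrays), a 1.68-fold difference (log2 fold change 0.75, standard error 0.14, adjusted p = 0.00934). The groups did not overlap at either gene. Without control replicate 2 the adjusted p of S100a9 was 0.0626, and the log2 fold change of S100a8 was 0.63 with an offset of 50 added to the signals, below the 0.76 of C3 on that scale.

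Both genes lay near the minimum signal, and S100a8 entered the test through its stressed arrays alone, as did Il18. Of 216 probe sets that were below 100 on both control arrays and still tested, 44.9% rose, and such probe sets could enter the test through their stressed arrays alone. Other neutrophil markers did not reach the minimum. Of 12 markers 7 were on the array, none was tested, and their summed signal was 132.1 and 132.8 in stressed rats and 138.5 and 112.4 in controls. Csf3r, the receptor for the neutrophil growth factor, had 36.9 and 35.8 in stressed rats and 32.8 and 27.2 in controls. Np4 was also higher, with 40.5 and 27.4 in stressed rats and 18.7 and 20.6 in controls. Mmp9 ran the opposite way at both probe sets, with 18.6 and 13.4 in stressed rats and 35.9 and 32.9 in controls at the brighter. Cxcr2 was lower too, with 1.2 and 0.9 in stressed rats and 2.7 and 2.8 in controls. Camp, a granule peptide, had 2.1 and 2.8 in stressed rats and 2.4 and 2.3 in controls, and Defa5 and Mmp8 overlapped as well. Red blood cell markers had summed signals of 2989.0 and 2884.8 in stressed rats and 3055.2 and 3063.6 in controls. Lcn2, an acute-phase protein of neutrophil granules and reactive astrocytes, had 23.2 and 33.8 in stressed rats and 36.0 and 48.0 in controls, the opposite order to S100a8 and S100a9, and was not tested.

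Promoters of 5 of the genes that changed are shown here to set the genes beside the factors that are known to act on such genes. The windows run from 250 bases before to 50 bases after the annotated start, from RefSeq on the rat assembly GRCr8, and 32 of 40 member genes matched, S100a8 not among them. Capitals mark matches on either strand to the NF-kB consensus, to the C/EBP motif TTNNGNAAT, to the PU.1 core GAGGAA and to the TATA box TATAAA. PU.1 and C/EBP are factors of the myeloid lineage.
S100a9 (GRCr8 chr2:178490573-178490872, minus strand): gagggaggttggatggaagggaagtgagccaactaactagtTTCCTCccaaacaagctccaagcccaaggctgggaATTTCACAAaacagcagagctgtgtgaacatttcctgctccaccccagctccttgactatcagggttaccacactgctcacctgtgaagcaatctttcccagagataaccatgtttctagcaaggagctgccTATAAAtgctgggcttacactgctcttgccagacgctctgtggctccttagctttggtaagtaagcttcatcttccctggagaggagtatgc
C3 (GRCr8 chr9:2201290-2201589, minus strand): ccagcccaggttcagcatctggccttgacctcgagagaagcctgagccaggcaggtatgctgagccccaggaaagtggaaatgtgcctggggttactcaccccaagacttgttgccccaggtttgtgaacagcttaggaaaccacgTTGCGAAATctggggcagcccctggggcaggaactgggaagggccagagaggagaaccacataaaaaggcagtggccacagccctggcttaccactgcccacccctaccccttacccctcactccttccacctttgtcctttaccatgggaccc
Nfkbia (GRCr8 chr6:78597023-78597322, minus strand): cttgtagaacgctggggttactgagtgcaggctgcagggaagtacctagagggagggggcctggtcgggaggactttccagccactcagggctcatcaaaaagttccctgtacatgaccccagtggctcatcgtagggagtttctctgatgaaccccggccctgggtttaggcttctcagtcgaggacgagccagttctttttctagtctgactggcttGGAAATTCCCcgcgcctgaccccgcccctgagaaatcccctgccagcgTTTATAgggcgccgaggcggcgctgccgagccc
Csf1r (GRCr8 chr18:56834129-56834428, plus strand): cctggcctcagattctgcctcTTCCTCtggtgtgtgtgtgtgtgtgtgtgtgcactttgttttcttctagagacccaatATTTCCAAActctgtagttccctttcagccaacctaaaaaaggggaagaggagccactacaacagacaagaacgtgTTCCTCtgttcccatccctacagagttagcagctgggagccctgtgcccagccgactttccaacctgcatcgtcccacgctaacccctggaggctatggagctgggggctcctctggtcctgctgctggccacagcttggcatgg
Cd74 (GRCr8 chr18:56526956-56527255, plus strand): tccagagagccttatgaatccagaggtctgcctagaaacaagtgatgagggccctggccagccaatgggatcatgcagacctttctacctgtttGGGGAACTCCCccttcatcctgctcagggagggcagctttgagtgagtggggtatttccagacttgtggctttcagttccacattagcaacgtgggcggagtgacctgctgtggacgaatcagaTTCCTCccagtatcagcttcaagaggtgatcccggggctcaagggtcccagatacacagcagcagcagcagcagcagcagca

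The promoter of Nfkbia held an NF-kB match that began at base -31 from the start, and that of Cd74 held a pair of overlapping ones on opposite strands from base -156. C3 held a C/EBP match at base -104 and S100a9 one at base -174 beside a TATA box at base -42. Csf1r held PU.1 cores at bases -229 and -95 and a C/EBP match at base -171, and PU.1 cores also stood in S100a9 and Cd74. Over the 33469 promoters of this length, 4.18% held the NF-kB consensus, 12.3% the C/EBP motif, 27.6% the PU.1 core and 14.2% the TATA box. Among the 32 member promoters these were 9, 6, 15 and 7. NF-kB matches stood in the promoters of Nfkbia, which rose, of Cd74, which fell, of B2m, Irf1 and Nfkb1, which did not pass, and of Il6, Lcn2, Tgfb1 and Tlr2, which were too dim to test. A match is a description of the letters and does not show binding.

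The signals of the classical inflammatory cytokines and of several surface receptors were too low to test. The 21 probe sets below the minimum had signals of at most 99.7. Il1b, the cytokine of inflammasome activation, had signals of 27.6 and 26.5 in stressed rats and 12.6 and 3.0 in controls. Tnf, at its brighter probe set, had 17.9 and 15.8 in stressed rats and 2.7 and 11.4 in controls. Il6 had 10.9 and 8.7 in stressed rats and 4.2 and 1.6 in controls. Ccl2, which attracts monocytes, had 15.1 and 17.6 in stressed rats and 6.9 and 1.2 in controls. In these probe sets the stressed signals lay above the controls without overlap. Among the 21 dim member probe sets, 6 lay above and 5 below in this way. Over all 16251 probe sets that were not tested, 26.0% had both stressed signals above both controls and 14.9% below. Their median signal was 20.8 and 21.3 in stressed rats and 19.2 and 18.5 in controls.

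The receptor genes Cx3cr1, Itgam, Tlr2 and Cd14, the brighter probe set of Ptprc and the macrophage gene Cd68 overlapped between the groups below 100. Cx3cr1, the fractalkine receptor of microglia, had 71.9 and 82.3 in stressed rats and 73.0 and 66.0 in controls. Tlr4, the receptor for bacterial lipopolysaccharide, had 35.1 and 27.5 in stressed rats and 17.8 and 19.5 in controls, without overlap. Trem2, a lipid receptor of microglia, had 92.6 and 76.6 in stressed rats and 76.1 and 71.4 in controls at its brighter probe set. Its other probe set ran the opposite way, with 63.4 and 47.5 in stressed rats and 75.9 and 73.1 in controls. Tgfb1 had 61.3 and 71.5 in stressed rats and 89.3 and 68.5 in controls. Levels in this range gave no order that could be tested.

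**Figure D3:**
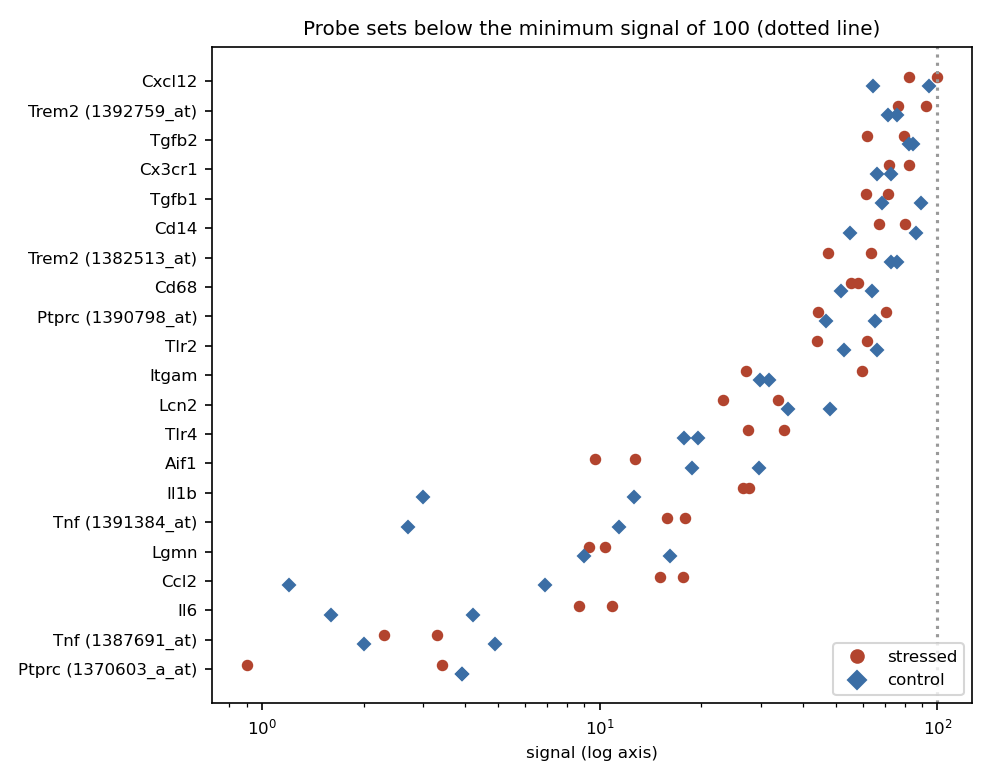
Signal (log axis) on each array for the 21 probe sets below the minimum of 100 (dotted line), with stressed rats as circles in the upper position of each row and controls as diamonds below them. Stressed signals of Il1b, Il6, Ccl2, Tlr4 and the brighter Tnf and Trem2 probe sets lie right of the controls without overlap. Those of Lcn2 and of the dimmer Aif1, Ptprc, Tgfb2 and Trem2 probe sets lie left of them.

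Other genes of the same pathways were called in both directions. The counts of each list stand beside 11.1% that rose and 10.2% that fell over all 9264 genes. Of 29 tested further microglial genes, 2 rose and 2 fell. P2ry12, a purine receptor found on resting microglia, fell at both tested probe sets. At the brighter it had 796.4 and 755.9 in stressed rats and 951.7 and 870.4 in controls, a log2 fold change of -0.23 (adjusted p = 0.0376). At the dimmer it had 105.6 and 137.8 in stressed rats and 281.8 and 301.2 in controls, a log2 fold change of -1.27 (adjusted p = 0.00113). P2ry6, which responds to uridine diphosphate, rose by 0.64 on the log2 scale (adjusted p = 0.0177), although its control signals of 82.7 and 84.5 lay below 100. Lyz2, which encodes lysozyme, fell by 0.22 (adjusted p = 0.0352). The other rise, named after its value was seen, was that of the cathepsin gene Ctsd at 0.23 (adjusted p = 0.0492). Tmem119 did not pass (adjusted p = 0.866). The median over this list was 0.05.

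Of 7 tested further complement genes none rose and 1 fell (limma, with 2 higher and 2 lower at unadjusted p under 0.05). C1r, a protease of the C1 complex, had 118.9 and 141.2 in stressed rats and 182.5 and 186.6 in controls (log2 fold change -0.51, adjusted p = 0.0297). Among 13 tested genes of antigen presentation, 0 rose, 1 fell and 12 did not pass. Pdia3, which helps load class I molecules, fell by 0.53 (adjusted p = 0.000275), while its other tested probe set stood at 0.12 (adjusted p = 0.494). The class II genes RT1-Da (-0.17), RT1-DMb (-0.13), RT1-Bb (0.07) and RT1-DMa (0.06) did not pass. Of 15 Toll-like receptor and NF-kB genes, 3 rose and 2 fell. Traf3 fell by 0.25 (adjusted p = 0.0199), Map3k7 rose by 0.26 (adjusted p = 0.0238) and Tnfrsf1a, the main receptor for tumour necrosis factor, fell by 0.48 (adjusted p = 0.0258). The other rises, named after their values were seen, were those of Ikbkb and Tnfaip3. Ikbkb, a kinase that releases NF-kB from its inhibitor, had 136.0 and 114.1 in stressed rats and 83.8 and 80.3 in controls (log2 fold change 0.60, adjusted p = 0.0302), and entered the test through the stressed arrays alone. Tnfaip3, a feedback inhibitor of NF-kB, had 241.6 and 248.6 in stressed rats and 144.0 and 195.8 in controls (log2 fold change 0.55, adjusted p = 0.0375).

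In the list of interferon and STAT genes more fell than rose, while 12 did not pass. Of 20 tested interferon and STAT genes, 6 fell and 2 rose, with a median of -0.10, against 10.2% that fell and 11.1% that rose over all genes. Ifi27 had 1116.8 and 1121.4 in stressed rats and 2013.6 and 2039.4 in controls, or -0.86 ± 0.05 (standard error) on the log2 scale, with an adjusted p of 3.3e-05. Ifitm2, which restricts the entry of viruses, had 144.7 and 156.5 in stressed rats and 269.0 and 250.6 in controls (log2 fold change -0.79, adjusted p = 0.00272). Il6st, the shared receptor chain of the interleukin-6 family, fell by 0.65 at its brightest probe set (adjusted p = 0.000307) but rose by 0.21 at another (adjusted p = 0.0349). Ifnar1 fell by 0.59 at its brighter probe set (adjusted p = 0.0106), while its other tested one stood at -0.06 (adjusted p = 0.81). Isg15 (-0.24), Mx1 (-0.17), Mx2 (0.06), Ifit2 (0.12) and Irf9 (0.14), also named after their values were seen, did not pass. The genes that rose, named after their values were seen, were Jak1, a kinase of cytokine receptors, at 0.26 (adjusted p = 0.00528) and Stat2, a factor of the type I interferon response, at 0.39 (adjusted p = 0.0435). The falls stood beside those of the meningeal markers given above, and the part of meningeal tissue in them was not tested. Of 15 tested cytokine and receptor genes 3 rose and 2 fell. Csf1, a ligand of Csf1r, had 310.3 and 339.3 in stressed rats and 207.7 and 217.9 in controls (log2 fold change 0.61, standard error 0.10, adjusted p = 0.0045). Cx3cl1, the neuronal ligand of Cx3cr1, rose by 0.19 (adjusted p = 0.0203), and Cxcr4, the receptor for Cxcl12, fell by 0.67 (adjusted p = 0.0195) with stressed signals of 89.3 and 76.6 below the minimum. The others, named after their values were seen, were Smad3 at 0.33 (adjusted p = 0.0275) and Cxcl16 at -0.46 (adjusted p = 0.0278).

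**Figure D4:**
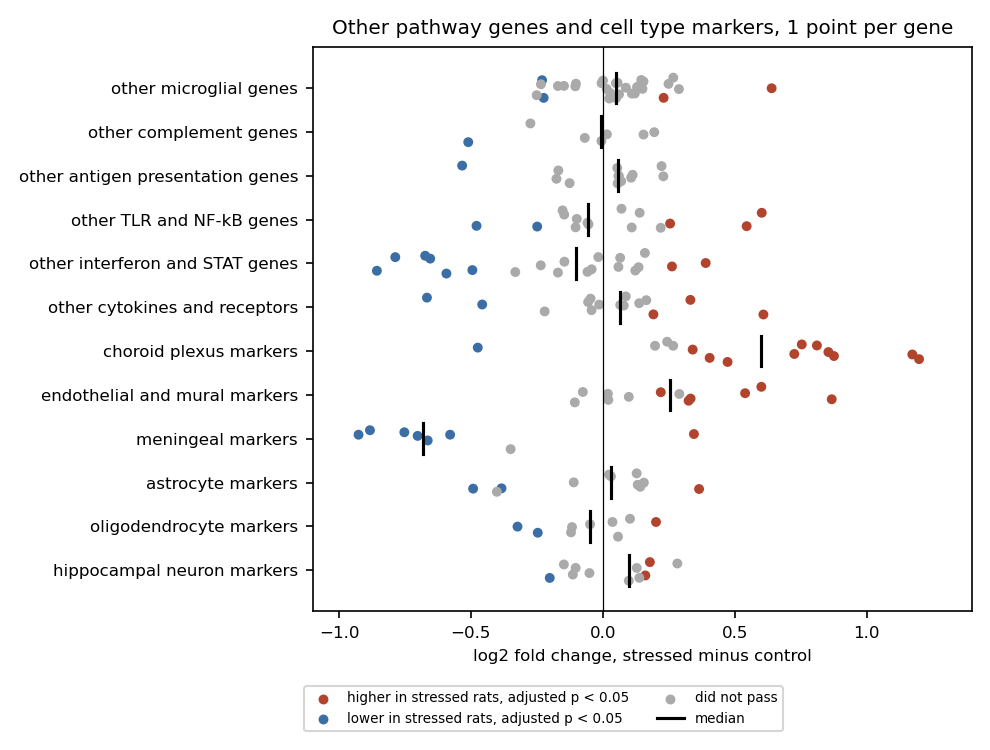
Log2 fold change (stressed minus control) of each tested gene at its brightest probe set, in 6 lists of other pathway genes and 6 lists of cell type markers, with the median of each list as a black bar. Choroid plexus markers lie mostly right of 0 with a median of 0.60 and meningeal markers mostly left with a median of -0.68, while the other lists have medians from -0.10 to 0.26.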

How the data were processed

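The authors hybridized biotin-labelled hippocampal RNA to the Affymetrix Rat Genome 230 2.0 array and computed signal intensities in GCOS 1.4, scaled to a target value of 300. Values were used as deposited, without further normalization, and detection calls were not used here. Log2 signals were computed with zeros set to 0.1, and the 57 control probe sets of the manufacturer were dropped. Of 31042 others, the 14791 that reached 100 on 2 or more arrays were tested by limma 3.58.1 in R 4.3.3, stressed against control, with an intensity trend, no replicate block and Benjamini-Hochberg adjustment over all of them. Intervals cover 95%. The study's thresholds, 2-fold and unadjusted p under 0.05, were applied separately. Each gene stood by its tested probe set with the highest mean log2 signal, and 9264 genes were tested. Symbols came from the platform annotation. All 40 member symbols with a probe set were unchanged in RefSeq, and the other lists used RefSeq symbols. The members and lists were chosen with earlier results of these data known. Of other pathway lists, the 3 genes with the smallest p among those past the threshold were named. Same-numbered arrays deviated with a correlation of -0.11. The number of arrays limits the precision. The fit was tested on simulated data. Tables were made in Python 3.11.15 (numpy 2.4.6, pandas 2.3.3) and plots in matplotlib 3.10.9.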

Additional observations from a re-analysis of the deposited data

Results flagged for a closer look

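Probe sets annotated to both Cfb and C2 were outside the comparisons, since their signal could come from either complement gene. One of them, 1389470_at, drew attention because both stressed signals exceeded both controls, at 110.3 and 107.2 in stressed rats (mean 108.75) and 86.4 and 73.5 in controls, with a log2 fold change of 0.45 (limma, adjusted p = 0.082). Another, 1383391_a_at, had 124.0 and 139.7 in stressed rats and 136.6 and 136.8 in controls (log2 fold change -0.05). A dim one, 1383392_at, had 5.7 and 6.1 in stressed rats and 27.4 and 23.9 in controls.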

How the results depend on the processing

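Members rose in 6 genes and fell in 2. Under quantile normalization, median centring, the filters on dim probe sets, the offset of 50, the floor of 50, no intensity trend and averaging over a gene's probe sets, 5 to 7 rose and 2 to 3 fell. Without an intensity trend 1000 probe sets rose and 1147 fell over the whole table, against 1771 and 1744. The methods' t-test called 4 and 14 probe sets on log2 signals, 4 and 12 on linear signals, and 0 and 0 members on either scale, with an unadjusted p under 0.05 in 6 higher and 4 lower members. The study's thresholds called 32 probe sets higher and 204 lower, and 1 and 0 members. With the replicate number as a block 5 members rose and 2 fell, and 1281 and 1391 probe sets. Since the numbers deviated slightly against each other, a crossed block was added after seeing the data, with 7 and 2 members and 2069 and 1970 probe sets. Csf1r lost its call with the block and no other member's call changed there. When each array was left out in turn, which leaves 3 arrays, 2 to 6 members rose and 0 to 2 fell, and 650 to 1148 probe sets rose and 791 to 1342 fell. The calls of C3 and the dimmer Cxcl12 probe set stood in each removal. That of S100a8 stood too, but the removals kept the probe sets chosen on all 4 arrays. S100a8 reached 100 on its stressed arrays alone, so without either of them it would not have entered the test. Reversals of sign touched only values near 0. The dimmer Laptm5 probe set turned to -0.015 under quantile normalization, -0.013 under median centring and -0.0084 on linear signals. With each array left out its value lay between -0.23 and 0.24, that of Aif1 between -0.0086 and 0.048, that of Fcgr2b between -0.080 and 0.051, and that of the brighter B2m probe set between -0.053 and 0.027. The cause was not tested. S100a8 was not tested under the filters of a mean of 100 and of 200 on 2 arrays, nor S100a9 under the one of 200. Signals of the 21 dim member probe sets limit any statement on Il1b, Il6, Tnf, Ccl2 and the dim receptors.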
